A study of Mus musculus with 6 samples.

Results

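The subunits of the mitochondrial respiratory chain and of the ATP synthase were compared between 2 groups of RNA sequencing libraries from mouse HL-1 cells. Members were taken by gene symbol, as the genes named for complex I (Nduf), complex II (Sdh), complex III (Uqcr and Cyc1), cytochrome c (Cycs and Cyct), complex IV (Cox4 to Cox8), the ATP synthase (Atp5) and the protein genes of mitochondrial DNA (mt-). Of 115 symbols that matched, 8 assembly factors of complex I and 7 pseudogenes were left out. The remaining 100 members, 87 nuclear and 13 mitochondrial, stood among 22246 genes in the expression table. One of them, Atp5s, carries the family name without being a structural subunit. HL-1 is an established line from mouse atrial cardiomyocytes. The control group held 3 libraries of cells with a control shRNA (short hairpin RNA, which directs the breakdown of a matching mRNA), and the other group held 3 libraries of HL-1 cells labelled as given an shRNA against Smyd4, which encodes a protein of a lysine methyltransferase family. The labels give the strain C57BL/6 and the tissue heart for all 6 libraries. They state no treatment, no time and no separate cultures, so the p-values below measure the spread between these libraries, which may be technical.

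The respiratory chain passes electrons from NADH, through complex I, or from succinate, through complex II, to coenzyme Q, and then through complex III and cytochrome c to complex IV, where oxygen is reduced to water. Complexes I, III and IV pump protons as they do so, and the ATP synthase uses the returning protons to make ATP. Complexes I, III, IV and the ATP synthase are built from proteins of both genomes, and heart muscle is among the tissues richest in them. Several complex IV subunits come in pairs of genes, one used in most cells and one used in heart and skeletal muscle or in testis.

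Expression was given as FPKM, which counts sequenced fragments for each kilobase of a gene after correction for library depth. The control libraries held 23414484 to 25267607 reads recovered from these values and the labelled libraries 20755856 to 26387606. The members took 3.09% to 3.28% of the reads of a library, and the mitochondrial members 1.92% to 2.1%. Smyd4 itself stood at 12.5, 12.8 and 13.5 FPKM in the control libraries and at 12.6, 12.3 and 11.9 FPKM in the libraries labelled Smyd4 shRNA. The groups overlapped, with a log2 change of -0.07 (SE 0.04, adjusted p = 0.173, limma; exact two-sided permutation p = 0.2, where 0.1 is the smallest 3 against 3 can give). With libraries rescaled to an equal sum over the nuclear genes outside the set, the change was -0.11 with an adjusted p of 0.0391, the one alternative of 16 in which it passed (the range was 0.0391 to 0.444). The mRNA level thus gives no clear check of the label, and the second group is called the libraries labelled Smyd4 shRNA, or the labelled libraries, throughout. Of the atrial cardiomyocyte markers, Myh6, Myl7, Tnni3, Ryr2 and Gja5 were below 0.1 FPKM in the mean of each group, while Tnnt2 was at 7.11 ± 0.264 FPKM in the control and 11.7 ± 0.398 FPKM in the labelled libraries and Nppb at 2.15 ± 0.423 and 0.484 ± 0.282 FPKM (SD, n = 3). Markers of skeletal muscle, mainly Myod1, summed to 23.2 to 24.5 FPKM in the control and 6.82 to 7.21 FPKM in the labelled libraries, and fibroblast markers to 127.6 to 130.4 and 153.9 to 163.7 FPKM, with Col1a1 and Col1a2 higher and Dcn and Pdgfra lower. In bulk RNA, fewer cells of a type and less RNA per cell cannot be told apart.

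Most subunits differed little between the groups. Of the 93 members that reached a mean of 1 FPKM and were tested, 17 were higher and 13 lower in the labelled libraries at an adjusted p under 0.05 (limma on log2(FPKM + 0.5), Benjamini-Hochberg over 11325 tested genes). The called share was 32.3%, against 48.3% of all tested genes. By direction, 18.3% of the members were higher (25.1% of all tested genes) and 14.0% were lower (23.3% of all tested genes). The groups did not overlap for 36.6% of the members, against 57.8% of all tested genes. Median size of the change, regardless of sign, was 0.08 on the log2 scale for the members and 0.13 for all tested genes. On the log2(FPKM + 0.5) scale, which understates changes of low genes, only 1 of the 93, Cox6a2, changed by more than 1.5-fold, or 1.08%, against 7.21% of all tested genes. In mean FPKM, Cox7a1 was also past that, 1.6-fold lower. The median signed change was 0.02 both for the members and for all tested genes.

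The balance between rises and falls depended on how libraries were scaled. With an equal sum over the nuclear genes outside the set, 16 members were higher and 20 lower, and with quantile normalization 15 and 19. Over all genes the equal sum gave 2147 higher and 3161 lower, where the FPKM as deposited gave 2839 and 2635. The calls of 18 members, 12 higher and 6 lower, held under all 16 alternatives run. Those 12 were Atp5d, Atp5g1, Cox6a2, Cox7b, Ndufa10, Ndufa12, Ndufb10, Ndufs7, Ndufs8, Ndufv1, Sdhc and Uqcrq, and the 6 were Atp5k, Cox7c, Cycs, Ndufb7, Ndufb9 and Uqcrh. The authors' deposited table of called genes lists 27 members, 16 higher and 11 lower. It shares 26 with the calls here, none of them with the opposite sign. With edgeR on the recovered reads, 18 members were higher and 14 lower, where 49.5% of all genes it tested were called.

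**Figure D1:**
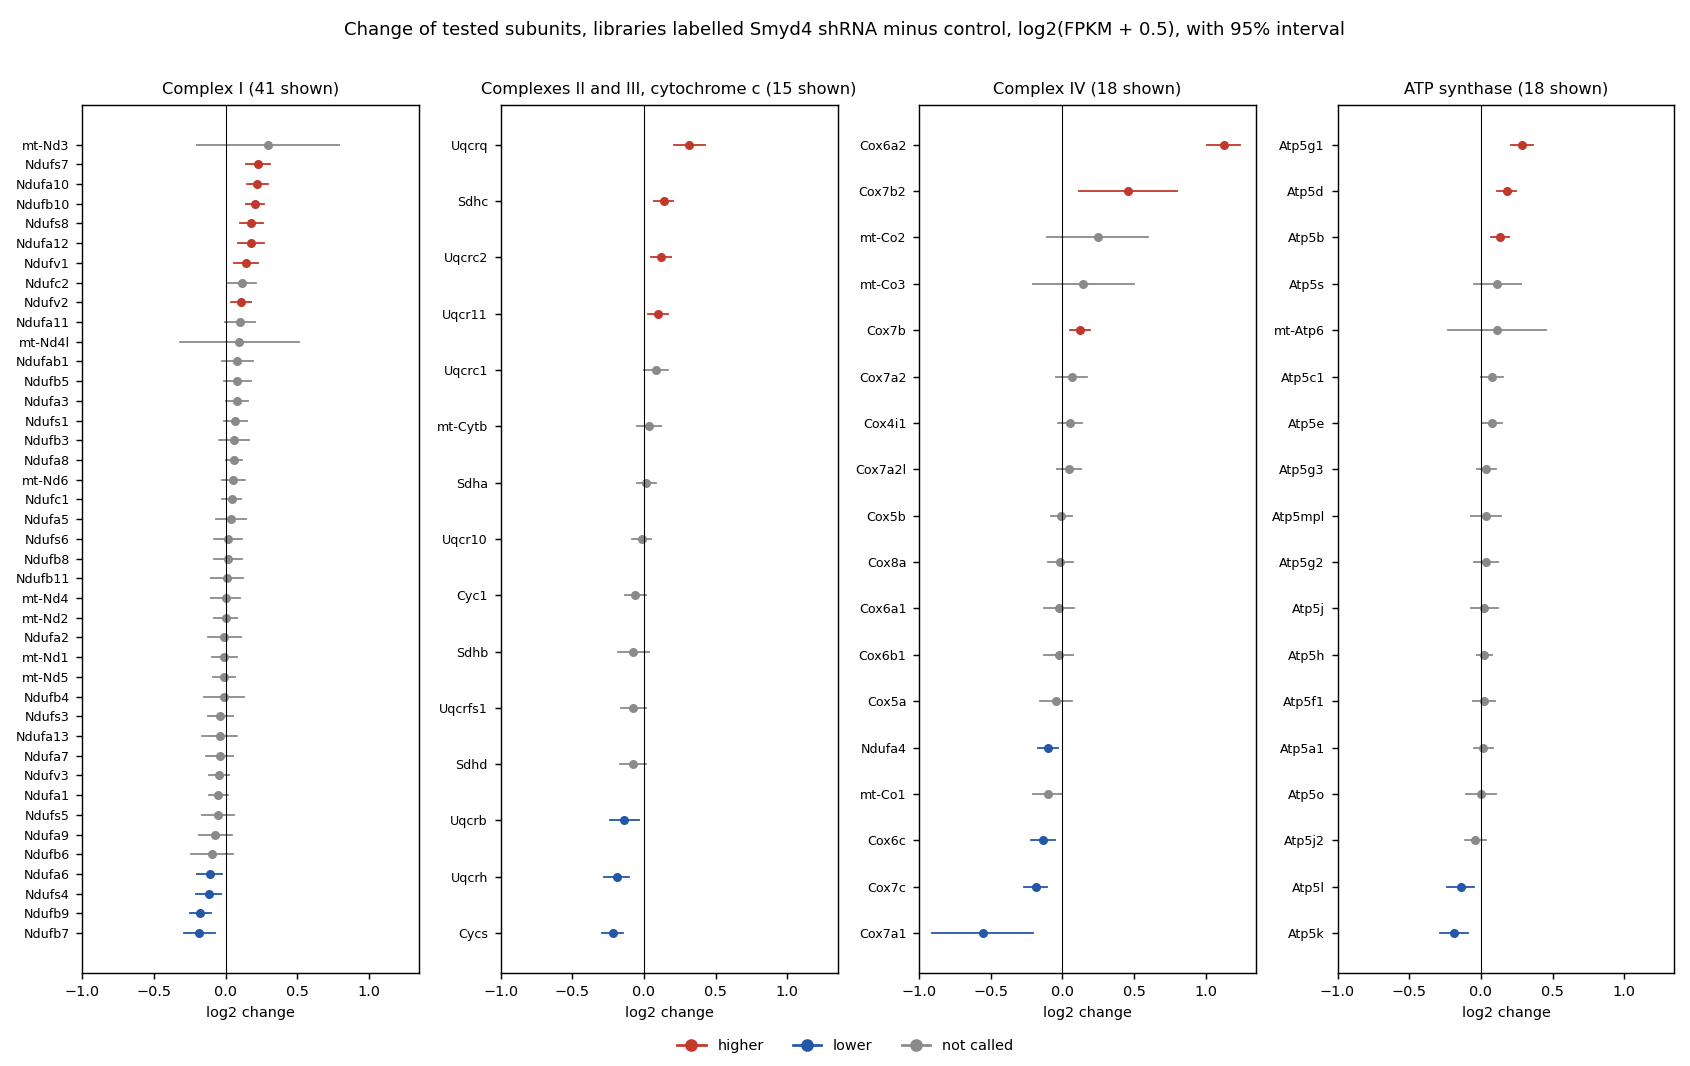
Log2 change of FPKM (x axis, labelled libraries minus control, with 95% interval) for the tested subunits shown, in panels by complex, with called members in red (17 higher) and blue (13 lower). Most intervals lie close to 0, and Cox6a2 stands alone at 1.12.

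Complex I, which oxidises NADH, had 4 of its 7 rises in the nuclear catalytic core, the flavin and iron-sulfur proteins that carry electrons to coenzyme Q. Of 7 core members, 4 were higher and none lower, where 25.1% of all tested genes were higher and 23.3% lower. The 4 were Ndufs7, Ndufs8, Ndufv1 and Ndufv2. Ndufs7 encodes the subunit holding the last iron-sulfur cluster before coenzyme Q, and it stood at 52.1, 52.3 and 53.8 FPKM in the control libraries and 62.6, 64.2 and 58.6 FPKM in the labelled libraries. Every labelled library was above every control library, and the change was 0.23 on the log2 scale (SE 0.04, adjusted p = 0.0015). Ndufs8, another iron-sulfur subunit, was at 74.9, 73.5 and 78.0 FPKM against 85.6, 88.4 and 82.7 FPKM, a log2 change of 0.18 (adjusted p = 0.00304). Ndufv1, the subunit that binds NADH, was at 48.3, 45.5 and 47.7 FPKM against 54.4, 50.4 and 51.6 FPKM, a log2 change of 0.14 (adjusted p = 0.0131). The groups did not overlap for any of these, as was so for 57.8% of all tested genes. Ndufv2, its partner, rose by 0.11 (adjusted p = 0.0202), but lost the call without control library 1 (0.0741), control library 2 (0.0719) or labelled library 1 (0.0623), within a range of 0.00761 to 0.0741 over the alternatives. Of the core genes without a call, Ndufs1 and Ndufs3 had log2 changes of 0.07 and -0.04 and overlapping groups. Summed over the 7, the core stood at 349.6 ± 8.89 FPKM in the control and 382.2 ± 7.31 FPKM in the labelled libraries (SD, n = 3), 9.32% more, with no overlap. Under the other scalings this sum was 6.37% to 8.47% higher.

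Accessory subunits of complex I, which surround the core and are needed for its assembly and stability, moved both ways. Of 28 tested, 3 were higher and 4 lower, where 25.1% of all tested genes were higher and 23.3% lower. Their summed FPKM overlapped between the groups at 1821 ± 67.8 and 1815 ± 25.4 (SD, n = 3). Ndufa10 was at 27.9, 28.8 and 30.0 FPKM in the control and 33.8, 33.7 and 33.8 FPKM in the labelled libraries (log2 change 0.22, SE 0.03, adjusted p = 0.000762). Its labelled libraries were nearly equal and all above the control. Ndufb10 rose by 0.21 and Ndufa12 by 0.18 (adjusted p = 0.000615 and 0.00751). Lower were Ndufb9 and Ndufb7, both subunits of the membrane arm. Ndufb9 was at 233.7, 241.7 and 247.0 FPKM against 218.5, 206.1 and 214.5 FPKM (log2 change -0.18, adjusted p = 0.00264), and Ndufb7 at 16.3, 17.0 and 18.0 FPKM against 15.8, 14.6 and 14.7 FPKM (-0.18, adjusted p = 0.0134). The groups did not overlap for either gene, although for Ndufb7 the closest libraries lay near each other.

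Ndufs4 and Ndufa6 were called lower on smaller differences. Ndufs4, a subunit whose loss causes complex I deficiency in mice and humans, fell by 0.12 on the log2 scale (adjusted p = 0.0335). Its call was lost without control library 2 (0.0767), control library 3 (0.09), labelled library 1 (0.0936) or labelled library 2 (0.0857), within a range of 0.00638 to 0.145 over the alternatives. Ndufa6 fell by 0.11 (adjusted p = 0.0432) and was not called without control library 3 (0.0879), labelled library 1 (0.111) or labelled library 3 (0.109), within a range of 0.00776 to 0.111. Ndufb2 was listed below 1 FPKM in every library and was not tested. The 7 complex I genes of mitochondrial DNA had no call on the FPKM as deposited.

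Complex II, which oxidises succinate and is wholly nuclear, had 1 call among 4 genes, where 48.3% of all tested genes were called. Sdhc, one of its membrane anchors, was at 29.1, 29.7 and 30.4 FPKM in the control and 33.3, 32.4 and 32.6 FPKM in the labelled libraries (log2 change 0.14, SE 0.03, adjusted p = 0.00453). The other anchor, Sdhd, had a log2 change of -0.08 and was not called, nor were the flavoprotein gene Sdha (0.02) and the iron-sulfur gene Sdhb (-0.07). The sum over the complex overlapped between the groups.

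Complex III had its calls outside the catalytic core. The core genes, mt-Cytb, Cyc1 and Uqcrfs1, had log2 changes of 0.04, -0.06 and -0.07 with no call. Among the 7 core proteins and accessory subunits, 3 were higher and 2 lower, against 25.1% and 23.3% of all tested genes. Uqcrq, a small subunit bound to cytochrome b, showed the widest difference of the complex. It stood at 120.8, 114.5 and 129.1 FPKM in the control libraries and at 156.8, 152.9 and 144.5 FPKM in the labelled libraries (log2 change 0.32, SE 0.05, adjusted p = 0.00104). All labelled libraries lay above all controls. Uqcrh, the hinge protein at the docking site of cytochrome c, was at 86.0, 88.3 and 89.3 FPKM against 80.3, 72.7 and 77.9 FPKM, also without overlap and in the other direction (-0.19, SE 0.04, adjusted p = 0.00437).

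The other calls of complex III were small. Uqcrc2, a core protein, rose by 0.12 (adjusted p = 0.0148), with an adjusted p of 0.0522 without control library 1 and a range of 0.00708 to 0.0522 over the alternatives. Uqcr11 rose by 0.10 (adjusted p = 0.0279). It was not called without control library 1 (0.0997), control library 2 (0.0672), labelled library 1 (0.0791) or labelled library 3 (0.0854), within a range of 0.0194 to 0.0997. Uqcrb, which takes part in coenzyme Q binding, fell by 0.14 (adjusted p = 0.0315). It kept the call only where control library 1 was the one left out, and the adjusted p without one of the other libraries was 0.0664 to 0.0928, in a range of 0.00304 to 0.0928 over all alternatives.

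Cytochrome c carries electrons from complex III to complex IV and, once released from mitochondria, takes part in apoptosis. Cycs, its somatic gene, was at 56.8, 56.9 and 59.0 FPKM in the control and at 51.4, 48.3 and 48.8 FPKM in the labelled libraries. The groups did not overlap, and the log2 change was -0.22 (SE 0.03, adjusted p = 0.000828). Of the 50-base stretches of the longest Cycs transcript, 28.5% also occur in transcripts of other genes, among them 10 pseudogenes. Part of the Cycs reads could thus belong elsewhere. The testis gene Cyct was at 0 in 4 of the 6 libraries and below 0.1 FPKM in the others.

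**Figure D2:**
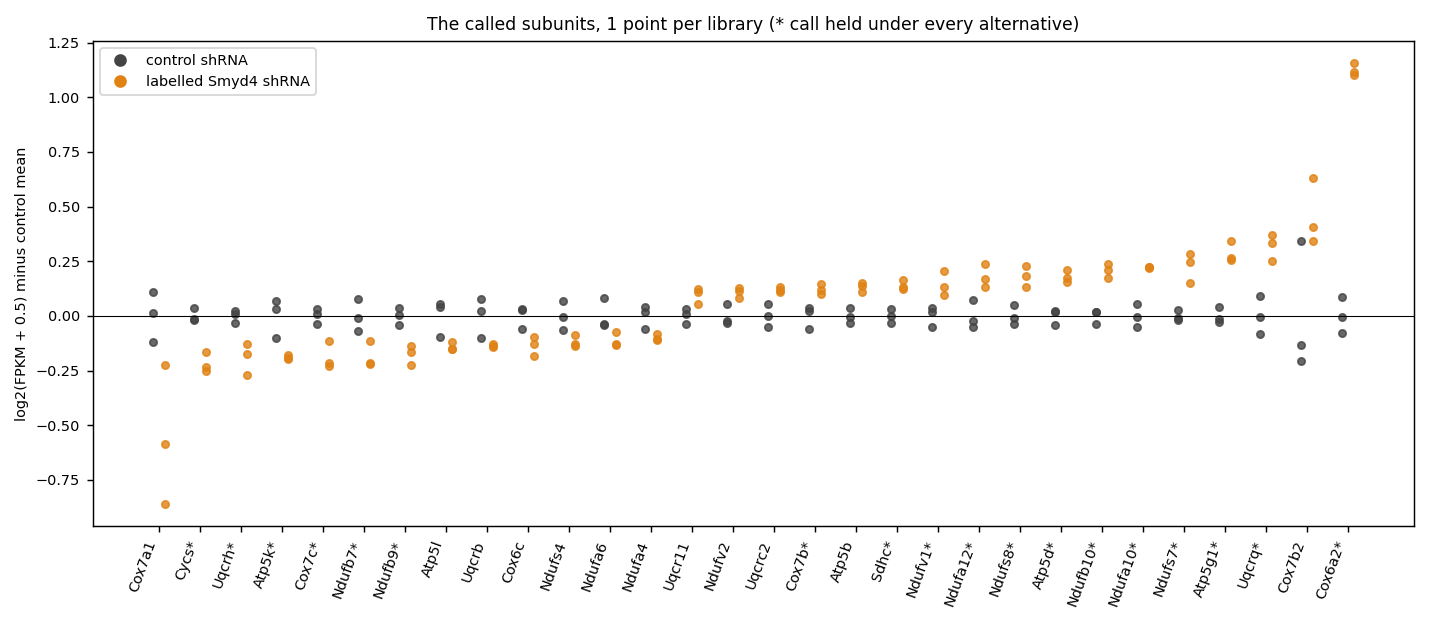
Log2(FPKM + 0.5) minus the control mean (y axis) in each library for the 30 called subunits, ordered by change, with control libraries in grey and labelled libraries in orange and a star on the 18 genes whose call held under all 16 alternatives. The groups stay apart except for near-touching points in small changes and in Cox7a1 and Cox7b2, which show the widest scatter within a group.

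Complex IV held both the largest rise and the largest fall of the set, in genes of low level. Cox6a2, the isoform of subunit 6a used in heart and skeletal muscle, lies at chr7:128205435-128206387 (GRCm38). It stood at 3.63, 3.41 and 3.89 FPKM in the control libraries and at 8.39, 8.73 and 8.45 FPKM in the labelled libraries. The groups were far apart, 2.34-fold in mean FPKM (log2 change 1.12, SE 0.05, adjusted p = 1.19e-06), on 55 to 150 reads a library. Its exons share 70 bases with those of Itgad on the opposite strand, and Itgad was at or below 0.01 FPKM in every library. Cox7a1, the isoform of subunit 7a used in heart and skeletal muscle, lies at chr7:30184144-30186078. It went the other way, from 2.19, 2.45 and 2.65 FPKM to 2.003, 1.11 and 1.44 FPKM (log2 change -0.56, SE 0.15, adjusted p = 0.0177). The groups did not overlap, but the highest labelled library was close to the lowest control.

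The fall of Cox7a1 rested on 15 to 36 reads a library. Its adjusted p was 0.0507 without control library 2, 0.059 without control library 3 and 0.197 with DESeq2, in a range of 0.00292 to 0.197 over its alternatives. Cox8b, another muscle isoform, was at 0.337 ± 0.215 FPKM in the control and 0.0889 ± 0.154 FPKM in the labelled libraries (SD, n = 3), with overlapping groups and below the minimum of the limma fit. The skeletal muscle markers Myod1 and Acta1 were lower in the labelled libraries, Myod1 at 18.8 ± 0.831 FPKM in the control and 5.31 ± 0.707 FPKM in the labelled libraries (SD, n = 3) and Acta1 at 4.33 ± 0.415 and 1.23 ± 0.356. Of the 2 atrial markers tested, Tnnt2, the cardiac troponin T gene, was higher and Nppb lower, from the values already given. The part of these marker differences in the isoform differences was not tested.

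The isoforms used mainly in muscle, testis or lung were a small part of the mRNA of their sets. Cox6a2 made up 0.707% ± 0.0353 of the COX6A sum in the control and 1.67% ± 0.104 in the labelled libraries (SD, n = 3, per length), and Cox6a1, the common gene, was not called (511.2 ± 17.9 against 503.0 ± 29.1 FPKM, overlapping) except after quantile normalization (-0.12, adjusted p = 0.00381, the lowest over the 16 alternatives, highest 0.976). Cox7a1 made up 1.04% ± 0.0547 and 0.628% ± 0.175 of the COX7A sum, where Cox7a2 and Cox7a2l, at 56.5% and 42.5% of the control sum, had overlapping groups at log2 changes of 0.06 and 0.05. Cox7b was higher, from 125.1, 132.7 and 133.7 FPKM to 144.4, 141.6 and 140.0 FPKM (log2 change 0.12, adjusted p = 0.0134). Cox7b2, the testis isoform, was at 2.62, 1.64 and 1.75 FPKM against 3.32, 2.63 and 2.76 FPKM (0.46, adjusted p = 0.0336). One control library all but touched the labelled group, and the call was lost without control library 2 (0.105), control library 3 (0.1), labelled library 1 (0.11) or labelled library 3 (0.055), with edgeR (0.0719) and with DESeq2 (0.262), in a range of 0.00277 to 0.262. Cox4i2, Cox6b2 and Cox8b, the lung, testis and muscle isoforms of their pairs, reached at most 0.545 FPKM in any library and were not tested, against 106.5, 188.6 and 310.1 FPKM for the control means of Cox4i1, Cox6b1 and Cox8a.

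**Figure D3:**
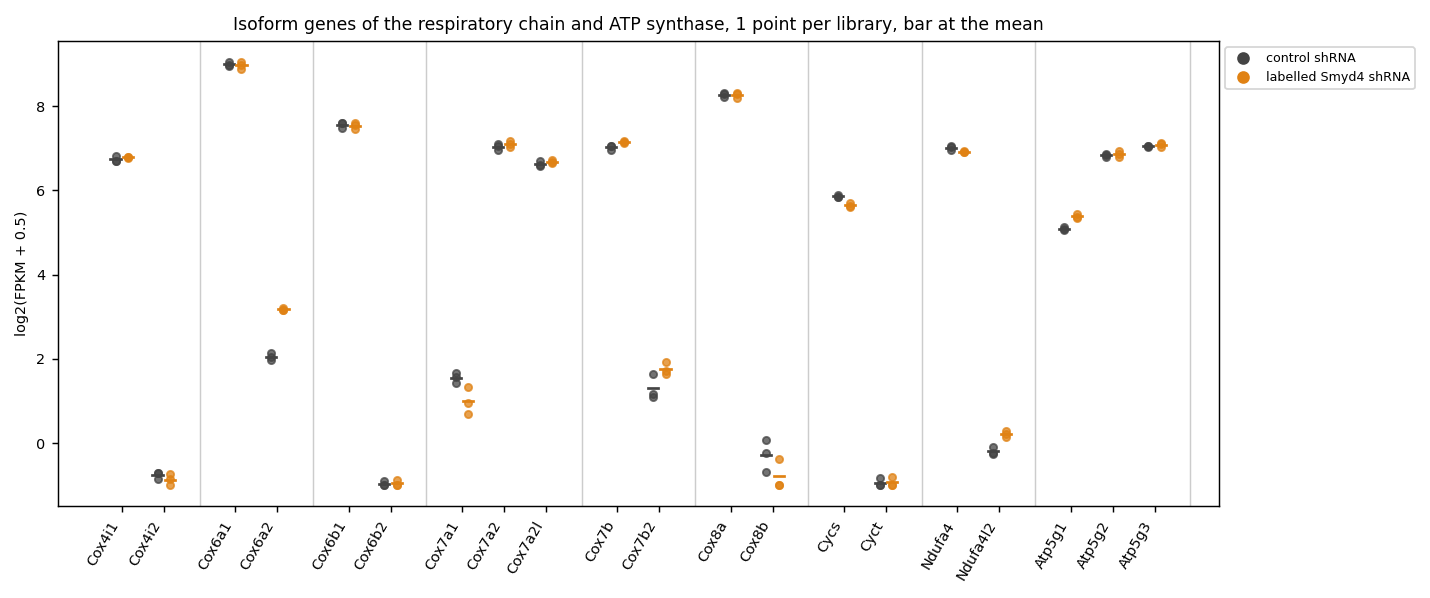
Log2(FPKM + 0.5) (y axis) of each isoform gene in the 6 libraries, with control libraries in grey, labelled libraries in orange and a bar at each mean. Cox6a2 is the only minor isoform whose groups are far apart, and Cox4i2, Cox6b2 and Cyct lie at the floor of the scale.

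Of 15 tested nuclear genes of complex IV, 3 were higher and 4 lower, where 25.1% of all tested genes were higher and 23.3% lower. The 3 rises, Cox6a2, Cox7b and Cox7b2, and the fall of Cox7a1 are given above. The other 3 falls were those of Cox7c, Cox6c and Ndufa4. Cox7c, a small membrane subunit, was at 127.4, 131.4 and 133.6 FPKM in the control and at 120.6, 111.4 and 112.6 FPKM in the labelled libraries (log2 change -0.19, SE 0.04, adjusted p = 0.00335), with no overlap. Cox6c fell by 0.14 (adjusted p = 0.0137), with an adjusted p of 0.0522 without control library 2 and a range of 0.000298 to 0.0522. Ndufa4, once counted in complex I and now placed in complex IV, fell by 0.10 (adjusted p = 0.027). It lost its call without control library 2 (0.0885), control library 3 (0.0746), labelled library 2 (0.0746) or labelled library 3 (0.0641), within a range of 0.00232 to 0.0885. Its paralog Ndufa4l2, known as a target of hypoxia signalling, was at 0.435, 0.352 and 0.329 FPKM against 0.718, 0.659 and 0.604 FPKM. Those groups did not overlap, but the gene was below the minimum of the limma fit. Its recovered reads were 4 to 9 a library, a lower bound because its length was the smallest possible. On these reads DESeq2 gave an adjusted p of 0.492. Cox5a, Cox5b, Cox6b1 and Cox8a had log2 changes between -0.04 and -0.01 with no call.

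The promoters of the 2 subunit 7a genes are printed because their levels differ so widely in these cells, Cox7a1 at 2.43 ± 0.234 and Cox7a2 at 131.3 ± 6.55 FPKM in the control (SD, n = 3). The 250 bases before each RefSeq start (GRCm38.p6) are chr7:30183921-30184170 on the plus strand and chr9:79759854-79760103 on the minus strand, each written 5′ to 3′ with CG pairs in capitals. CG pairs number 4 in the first and 14 in the second, where the median is 6 over all RefSeq windows and 14 over the member windows. A link between CG pairs and level was not tested.
Cox7a1: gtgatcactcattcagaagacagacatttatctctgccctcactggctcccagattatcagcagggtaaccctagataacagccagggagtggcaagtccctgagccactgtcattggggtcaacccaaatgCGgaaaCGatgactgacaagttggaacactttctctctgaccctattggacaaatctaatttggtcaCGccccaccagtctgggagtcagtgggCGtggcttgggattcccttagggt
Cox7a2: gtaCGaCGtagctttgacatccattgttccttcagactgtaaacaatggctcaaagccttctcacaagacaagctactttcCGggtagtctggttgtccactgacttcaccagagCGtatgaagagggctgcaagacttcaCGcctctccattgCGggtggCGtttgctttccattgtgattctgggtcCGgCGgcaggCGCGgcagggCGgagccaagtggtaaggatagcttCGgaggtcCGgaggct

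ATP synthase consists of the F1 head, where ATP is made, a ring of c subunits that turns in the membrane, and stalk and membrane subunits that hold the parts together. In the F1 head, 2 of 5 genes were higher and none was lower, against 25.1% and 23.3% of all tested genes. Atp5b, the catalytic beta subunit, was at 458.4, 450.2 and 471.2 FPKM in the control and 509.7, 496.1 and 505.7 FPKM in the labelled libraries (log2 change 0.13, SE 0.03, adjusted p = 0.00495), with an adjusted p of 0.251 after quantile normalization, the highest over the 16 alternatives (lowest 6.89e-08). Atp5d, the delta subunit of the rotor stalk, was at 145.7, 151.7 and 152.3 FPKM against 173.7, 169.3 and 167.0 FPKM (0.18, SE 0.03, adjusted p = 0.00115). Neither gene had overlapping groups, and the other head genes, Atp5a1, Atp5c1 and Atp5e, had log2 changes of 0.02, 0.08 and 0.08 with no call. The sum over the head was 1033 ± 21.7 FPKM in the control and 1111 ± 16.6 FPKM in the labelled libraries (SD, n = 3), 7.46% more and without overlap, and 2.51% to 6.62% more under the other scalings.

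The c ring is encoded by Atp5g1, Atp5g2 and Atp5g3, whose proteins differ only in the targeting sequence that is removed. Atp5g1, at chr11:96068852-96075670, was at 33.0, 33.4 and 34.7 FPKM in the control and at 42.9, 40.6 and 40.2 FPKM in the labelled libraries (log2 change 0.29, SE 0.03, adjusted p = 0.000269). The groups were well apart. Atp5g2 and Atp5g3 were not called and had overlapping groups, with log2 changes of 0.03 and 0.04 that turned to -0.0062 and -0.0013 with an equal sum over nuclear genes. The share of Atp5g1 in the c ring sum was 12.1% ± 0.176 in the control and 14.1% ± 0.336 in the labelled libraries (SD, n = 3). The longest transcript of Atp5g1 shares 11.6% of its 50-base stretches with other genes, 6 pseudogenes among them.

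Stalk and membrane subunits of the ATP synthase had 2 calls in 8 nuclear genes, both falls, where 23.3% of all tested genes were lower. Atp5k, a small subunit that joins synthase dimers, was at 73.9, 81.1 and 83.0 FPKM in the control and 69.3, 70.02 and 69.1 FPKM in the labelled libraries (log2 change -0.19, SE 0.04, adjusted p = 0.00737). All labelled libraries were below all controls. Atp5l, another dimer subunit, fell by 0.14 (adjusted p = 0.0213). Its call was lost without control library 2 (0.0759), control library 3 (0.0645), labelled library 2 (0.0595) or labelled library 3 (0.0538), within a range of 0.00178 to 0.0759. The other 6 nuclear genes of this part had log2 changes from -0.04 to 0.03. Outside the set by its symbol, Usmg5, a further dimer subunit, was at 300.7 ± 7.96 and 275.4 ± 13.7 FPKM (SD, n = 3, adjusted p = 0.0296, and 0.0876 without labelled library 3), and Atpif1, the inhibitor of the synthase, was at 17.0 ± 1.26 and 13.3 ± 0.222 FPKM (adjusted p = 0.000941). These 2 genes were added after their values were seen.

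Of the 13 protein genes of mitochondrial DNA, 12 were tested and limma called none on the FPKM as deposited. For 7 of them the level was high, from 482.1 ± 12.5 FPKM for mt-Nd6 to 5417 ± 285 FPKM for mt-Co1 in the control (SD, n = 3), and their log2 changes lay between -0.10 and 0.05. mt-Nd1, mt-Nd2, mt-Nd4 and mt-Nd5 changed by 0.01 or less and their sign turned between scalings or when 1 library was left out. Quantile normalization gave mt-Nd1 a change of -0.09 (adjusted p = 0.0435, in a range of 0.0435 to 0.981 over the alternatives) and mt-Nd4 one of -0.13 (adjusted p = 0.00515, in a range of 0.00515 to 0.999). mt-Co1, the catalytic subunit of complex IV that holds the site of oxygen reduction, was at 5263, 5243 and 5746 FPKM in the control and at 5047, 4976 and 5110 FPKM in the labelled libraries. The groups did not overlap, with a log2 change of -0.10 (SE 0.04, adjusted p = 0.09 with limma). edgeR and DESeq2 on the recovered reads called it (adjusted p = 0.00377 and 0.00224), as did limma with an equal sum over nuclear genes (0.00392) and the authors' deposited table (log2 fold change -0.10), and quantile normalization turned the change to 0.0075 (adjusted p = 0.653). The summed FPKM of complex IV, most of it from this gene, fell by 4.73% in the labelled libraries, without overlap. After quantile normalization its change was -0.313%, with overlapping groups.

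The other mitochondrial genes were at far lower listed levels and stood apart in 1 library. mt-Co2, mt-Co3, mt-Atp6, mt-Nd3 and mt-Nd4l were between 11.2 and 175.7 FPKM in every library, and mt-Atp8 at 0 to 0.967 FPKM, although all are cut from the same long transcripts as the highly expressed genes. Of the 50-base stretches in the first 5, between 98% and 100% also occur in nuclear pseudogenes that lie together on chromosome 1 and copy the mitochondrial DNA. For mt-Nd1, mt-Nd6 and mt-Cytb the share found in any other gene was 0%, and for mt-Nd4 and mt-Co1 it was 62.2% and 51.1%. The matches of mt-Co1 were in Gm13340 as well as in Gm29216, its copy on chromosome 1. The copies Gm28661, Gm28437, Gm10925 and Gm10222 match mt-Co2, mt-Co3, mt-Atp6 and mt-Nd4l without a mismatch. The pair with 1 mismatch is shown at its first 60 bases to make plain how little separates a mitochondrial read from a nuclear one, with the differing base in capitals (GRCm38, mt-Nd3 at chrM:9459-9518 on the plus strand and Gm28438 at chr1:24613060-24613119 on the minus strand, both 5′ to 3′).
mt-Nd3: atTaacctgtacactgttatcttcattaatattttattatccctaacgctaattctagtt
Gm28438: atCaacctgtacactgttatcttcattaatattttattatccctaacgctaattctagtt

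Labelled library 3 was the highest library for the 5 nearly fully shared genes and for the 7 nuclear copies. For the copy Gm28438, however, the labelled libraries were close together, at 102.5, 103.8 and 108.3 FPKM. mt-Co2 was at 105.9, 110.9 and 115.7 FPKM in the control and at 113.6, 113.6 and 175.7 FPKM in the labelled libraries. mt-Nd3 was at 21.7, 19.4 and 22.4 FPKM against 20.9, 21.6 and 39.3 FPKM. In both genes 2 labelled libraries lay within or near the control range and the third far above it. Over the 5 genes, labelled library 3 was 1.46 to 1.85 times the mean of the other 5 libraries, and over the 7 nuclear copies 1.18 to 1.55 times. For mt-Nd4 and mt-Co1, where only part of the sequence is shared, it was 1.06 and 0.97 times. Without labelled library 3, the log2 changes of mt-Co3, mt-Atp6 and mt-Nd4l turned from 0.14, 0.11 and 0.10 to -0.06, -0.08 and -0.13, and those of mt-Co2 and mt-Nd3 fell from 0.25 and 0.30 to 0.04 and 0.0061. mt-Co2 was called higher by edgeR (0.26, adjusted p = 0.0184) and not by DESeq2 (adjusted p = 0.41), in a range of 0.0184 to 0.5 over the alternatives. This library also had the fewest reads. The part of the shared sequence in these levels was not tested. The only copy called was Gm28438, at 84.8 FPKM in the mean of the control and 104.9 FPKM in the labelled libraries (log2 change 0.31, adjusted p = 0.000113).

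**Figure D4:**
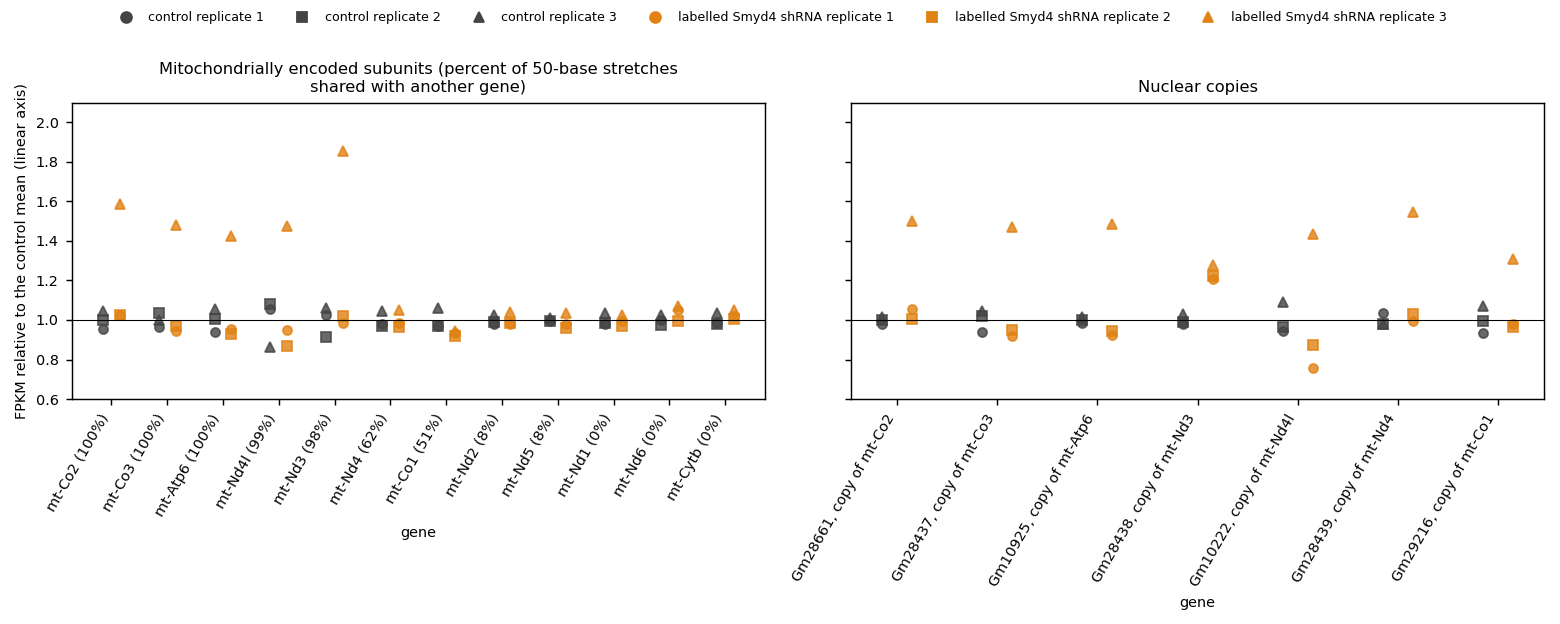
FPKM relative to the control mean (y axis, linear) in each library for 12 mitochondrially encoded subunits, ordered by the percent of 50-base stretches shared with another gene (in brackets), and for the 7 nuclear copies, with control libraries in grey and labelled libraries in orange. Labelled library 3 (orange triangles) stands 1.46 to 1.85 times above the mean of the other 5 libraries for the 5 nearly fully shared genes and 1.18 to 1.55 times for the nuclear copies, and close to the other libraries for the remaining subunits.

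Shared sequence and gene length touched nuclear members too, and the counts here take nuclear and mitochondrial members together. Of the 100 members, 41 match at least 1 pseudogene over 50 bases, 30 share more than 10% of their 50-base stretches with other genes and 33 overlap an exon of another gene in the table. Sequence matches were taken on either strand, so an overlapping neighbour, such as Gm15976 at Atp5o, enters both of the last counts. The labels do not say whether counting used strand, so reads of exon overlaps may be split. Of 33 tested members shorter than 1000 bases, 4 were higher and 6 lower with a median log2 change of 0.0087, where all tested genes of that length had a median of 0.09. Of the 60 longer members 13 were higher and 7 lower, with medians of 0.03 for the members and 0.01 for all longer genes. Over all lengths, 25.1% of all tested genes were higher and 23.3% lower. The called share of all genes was not taken by length, and an effect of length was not tested. Some of these lengths were the smallest possible, so the split at 1000 bases may misplace genes.

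Promoter sequences were available for 69 of the 87 nuclear members, in 74 windows of 300 bases around RefSeq starts. Exact words of 4 known motifs were searched on both strands, each window counted once, and one window can hold several words. The word CGCATGCG of NRF1, a regulator of respiratory genes and of Cycs in particular, was in 13.5% of the member windows and in 1.87% of all 32851 windows. CCGGAAG, the word of ETS factors such as GABP, was in 21.6% and 8.86%, and AAGATGGC, the word of YY1, in 12.2% and 2.75%. CAGCTG, an E-box bound by muscle factors such as Myod1, was in 9.46% and 16.3%. Of the 10 genes with the NRF1 word, Cycs, Atp5k and Atp5l were lower, Uqcr11 was higher and 6 were not called. Among the 16 with the ETS word, 2 were higher, 4 lower and 10 not called. The YY1 word was in 9 genes, 1 higher, 1 lower and 7 not called. The E-box was in 7, of which Atp5b, Ndufb10 and Ndufv2 were higher, none lower, 2 not called and 2 not tested. Beside these, 18.3% of the tested members were higher and 14.0% lower, and 25.1% and 23.3% of all tested genes. The counts are of few genes, and a link between a word and a direction was not tested. Stretches of 40 bases show the NRF1 word, in capitals, in 2 genes that were lower and 2 that were not called (5′ to 3′, minus strand, GRCm38.p6), at chr6:50566606-50566645, chr5:108434424-108434463, chr5:115349095-115349134 and chr15:102671064-102671103. Atp5k and Cox6a1 hold the ETS word as well. A match is a description of the sequence and no evidence of binding. The NRF1 word was shortened after the counts for a longer word had been seen, so its share is no independent result. That word also holds CG pairs, of which member windows hold a median of 14, against 6 over all windows.
Cycs: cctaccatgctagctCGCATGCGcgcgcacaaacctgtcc
Atp5k: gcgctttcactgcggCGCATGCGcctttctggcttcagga
Cox6a1: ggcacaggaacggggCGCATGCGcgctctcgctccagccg
Atp5g2: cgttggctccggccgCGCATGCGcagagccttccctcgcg

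Genes that build and supply the chain were read from the same fit in 7 lists. Of 8 regulators of mitochondrial biogenesis tested, 3 were lower and none was higher, where 23.3% of all tested genes were lower and 25.1% higher. Esrra, the orphan nuclear receptor that acts on many respiratory genes, was at 20.05 ± 0.249 FPKM in the control and 12.7 ± 1.16 FPKM in the labelled libraries (SD, n = 3, log2 change -0.65, adjusted p = 6.93e-05), with no overlap. Ppargc1b, its coactivator, fell by 0.36 (adjusted p = 0.028) and Ppard by 0.10 (0.0307). Without control library 1 neither was called (0.0951 and 0.097), and over the alternatives their adjusted p ranged from 0.00155 to 0.0951 and from 0.00956 to 0.134. Both also lost the call without control library 3 (0.0637 and 0.0516), labelled library 2 (0.0545 and 0.0937) or labelled library 3 (0.0786 and 0.0792), and Ppard without control library 2 (0.0755). Nrf1, Gabpa, Gabpb1, Yy1 and Pprc1 were not called, with log2 changes from 0.0025 to 0.08, and Ppargc1a, Esrrb, Perm1 and Ppara were under the minimum of 1 FPKM. On the recovered reads, edgeR and DESeq2 called Ppargc1a lower, from 0.289 ± 0.0092 to 0.101 ± 0.0518 FPKM (SD, n = 3, adjusted p = 3.91e-05 and 0.000459). Esrrb was called higher by both, from 0.0403 ± 0.0227 to 0.166 ± 0.0321 FPKM (SD, n = 3, adjusted p = 6.8e-05 and 0.00135), and Perm1 was called lower by edgeR alone (adjusted p = 0.0418, and 0.194 with DESeq2).

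Among the genes that maintain and express mitochondrial DNA, 5 of 17 were higher and none lower, where 25.1% of all tested genes were higher, including the packaging and transcription factor Tfam (log2 change 0.18, adjusted p = 0.00704), the helicase Twnk (0.16, adjusted p = 0.00477) and the RNA-stabilising Lrpprc (0.17, adjusted p = 0.00401). Assembly factors of complex I had 3 rises in 14, Tmem126b, Nubpl and Ndufaf7, the last not called without control library 2 (0.0557) or control library 3 (0.0504). Assembly factors of the other complexes had 5 rises and 1 fall in 29. Bcs1l, which inserts the iron-sulfur protein into complex III, was at 8.45 ± 0.45 and 11.4 ± 0.561 FPKM (SD, n = 3, log2 change 0.41, adjusted p = 0.000308), and Ttc19, also of complex III, was the one fall, at 7.86 ± 0.389 and 6.35 ± 0.368 FPKM (-0.29, adjusted p = 0.00273). Cmc2, of complex IV, rose by 0.26 (adjusted p = 0.000501).

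Over all 7 lists 31 genes were higher and 8 lower, and with an equal sum over nuclear genes 21 and 14. Pyruvate dehydrogenase and the tricarboxylic acid cycle had 6 rises and 3 falls in 17, with Pdhb (0.31, adjusted p = 0.000142), Fh1, the fumarase gene (0.27, adjusted p = 0.000141), and Sucla2 (0.22, adjusted p = 0.00239) at the smallest adjusted p. Coenzyme Q synthesis had 3 rises, among them Coq3 (0.34) and Pdss2 (0.32), and 1 fall in 12, Coq2 (-0.13, adjusted p = 0.0156, and 0.0579 without control library 1). Carriers of the inner and outer membrane had 9 rises and no fall in 12. Slc25a10, the dicarboxylate carrier, was at 33.1 ± 0.805 and 42.3 ± 1.26 FPKM (SD, n = 3, log2 change 0.35, adjusted p = 6.2e-05), Slc25a5, an ADP/ATP carrier, at 273.7 ± 7.35 and 314.3 ± 11.2 FPKM (0.20, adjusted p = 0.00187), and Slc25a12, an aspartate/glutamate carrier, at 11.5 ± 0.183 and 13.2 ± 0.348 FPKM (0.19, adjusted p = 0.00189). Of all tested genes, 25.1% were higher and 23.3% lower.

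**Figure D5:**
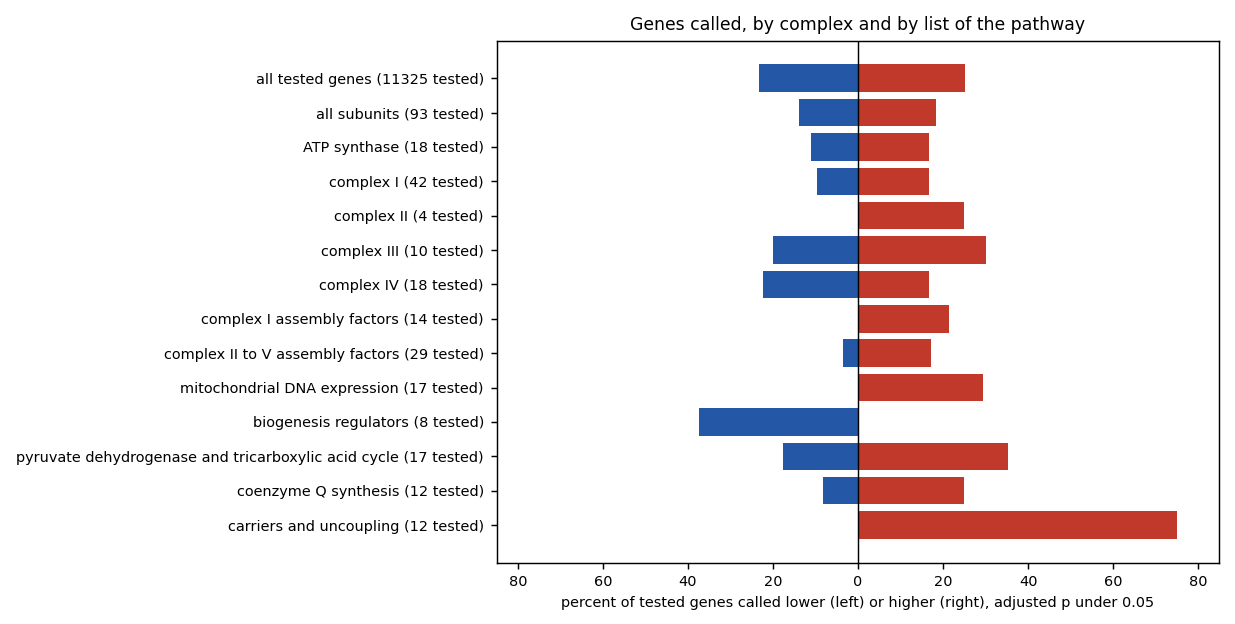
Percent of tested genes called lower (left, blue) and higher (right, red) in the labelled libraries, for all 11325 tested genes, for the subunits by complex and for 7 other lists of the pathway. The bars of all subunits are shorter than those of all tested genes on both sides, and the carriers show 9 of 12 higher and the biogenesis regulators 3 of 8 lower.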

How the data were processed

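RNA sequencing libraries of HL-1 cells were grouped by their titles in the labels, 3 control and 3 labelled Smyd4 shRNA. TopHat2 2.0.9, Bowtie2 2.0.6 and the build GRCm38 are named in the submitters' processing notes. Neither notes nor labels name the counter, the annotation or the authors' test. FPKM values were deposited by the authors for 22246 genes, and 22134 identifiers matched a symbol. The authors' deposited comparison table gives a normalized signal per library, the read count over 1 size factor, beside log2 fold changes and p-values of called genes by the authors. FPKM carry the same size factors, so they compare libraries as far as those hold.

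FPKM values times gene length gave whole reads for 100% of values (tolerance 0.01). Lengths came from the authors for 5616 genes, from the annotation for 13309 and otherwise (3321 genes) were the smallest possible, which makes those reads lower bounds. Groups were compared with limma 3.58.1 in R 4.3.3, with a trend, on log2(FPKM + 0.5) for genes whose mean reached 1 FPKM, which understates changes of low genes. P-values were adjusted by Benjamini-Hochberg over all tested genes at 0.05. The limma and edgeR tests were checked on simulated data in which few genes changed, each by 1.5-fold or more. That setting does not cover the smaller changes of most members, or data in which many genes differ. The alternatives were 2 pseudocounts, 2 filters, 3 scalings, each library left out, a replicate block, and edgeR 4.0.16 and DESeq2 1.42.0 on the recovered reads, where edgeR called 49.5% of genes. Replicate numbers are treated as names.

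Shared sequence was the percent of 50-base stretches of a member's longest GENCODE M21 transcript found, on either strand, in another gene's transcripts. Neighbours that overlap a member on the opposite strand are thus counted in it. Coordinates are those of the authors' table or GENCODE M21. Promoters are RefSeq (GRCm38.p6), and the NRF1 word searched is a shortening of a longer word, made after the counts for the longer one, which fewer members held, had been seen. One member counted in the totals is not reported here by name. The members, lists and tests were chosen with earlier results of these data known. The text names Smyd4, the mitochondrial members, isoform genes, the 3 largest rises and falls per complex, up to 3 genes of each list by adjusted p, and beyond that rule, chosen after their values were seen, the remaining called members, uncalled members named for contrast and regulators.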

Additional observations from a re-analysis of the deposited data

How the results depend on the processing

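Over 16 alternatives the members called higher numbered 14 to 21 and those called lower 7 to 20. The lower count was 7 with no filter on low values and 20 with an equal sum over nuclear genes outside the set, and 7 to 14 with 1 library left out. In the other lists of the pathway 31 genes were higher and 8 lower, and the counts were 21 and 14 with an equal sum, 33 and 14 with edgeR and 22 to 29 and 5 to 8 with 1 library left out. Smyd4 passed the threshold only with an equal sum (-0.11). The log2 change of summed FPKM after quantile normalization was 0.010 for the ATP synthase, 0.036 for its F1 head, -0.057 for complex I, -0.056 for complex III, -0.0045 for complex IV and 0.015 for the mitochondrial core of complex IV, and with an equal sum 0.014 for the ATP synthase, 0.064 for its F1 head, 0.089 for the complex I core and -0.0048 for complex III. The share of Cox6a2 then differed by 1.06 percentage points after quantile normalization.

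Signs turned for genes without a call. After median-of-ratios scaling mt-Nd2 and mt-Nd4 were at -0.011 and -0.011, and with edgeR at -0.0065 and -0.0063. After quantile normalization mt-Co1 was at 0.0075, mt-Cytb at -0.076, mt-Nd2 at -0.023, mt-Nd4 at -0.13 (adjusted p = 0.00515) and mt-Nd6 at -0.062. With an equal sum mt-Cytb was at -0.0041, mt-Nd2 at -0.040, mt-Nd4 at -0.039, Atp5g2 at -0.0062 and Atp5g3 at -0.0013. With 1 library left out the log2 change ranged from -0.029 to 0.018 for mt-Nd1, -0.028 to 0.019 for mt-Nd2, -0.037 to 0.034 for mt-Nd4, -0.13 to 0.24 for mt-Nd4l, -0.043 to 0.012 for mt-Nd5, -0.085 to 0.22 for mt-Atp6, -0.064 to 0.26 for mt-Co3, -0.065 to 0.019 for Cox6a1, -0.063 to 0.0094 for Cox6b1 and -0.040 to 0.020 for Cox8a. The cause of these changes was not tested. Same-numbered libraries did not deviate together (r = -0.03, 0.02 and 0.0069). With 3 libraries a group this cannot show whether same numbers were prepared together, and the numbers were treated as names. The fit with a replicate block called 18 members higher and 12 lower and 5141 genes in all, and lost Ndufa6 (adjusted p = 0.0653). Cox7a1 and Cox7b2 rest on fewer than 50 reads a library and Ndufa4l2 on a lower bound of 4 to 9, which limits what can be said of them.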
